A study of Mus musculus with 8 samples.

Results

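The genes described here code for the core of the elastic fibre and for fibulins, the glycoproteins that join its parts. They are the 10 genes Eln, Fbn1, Fbn2, Mfap2, Mfap5, Mfap4, Thsd4, Fbln1, Fbln2 and Fbln5, taken by symbol from a table of 17967 gene symbols. All 10 were found, and all 10 had enough reads to be tested among 13694 genes. The rule that picks them uses their symbols and no measured value. Even so, the members, lists and tests were chosen with earlier results of these data known.

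An elastic fibre has a core of cross-linked elastin, the product of Eln, laid onto a scaffold of fibrillin microfibrils. Fibrillin-1 (Fbn1) is the main microfibril protein of adult tissue and fibrillin-2 (Fbn2) is more typical of development. The microfibril-associated glycoproteins MAGP-1 (Mfap2) and MAGP-2 (Mfap5) bind fibrillins, and the microfibrils also hold latent growth factors of the TGF-beta family near the cell. In connective tissue these proteins are made by fibroblast-like cells, to which the stem cells of fat belong.

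Bulk RNA sequencing was done on adipose-derived stem cells, the progenitors of fat cells, which were sorted by flow cytometry after collagenase digestion of white fat. All mice were male, wild type, of the C57BL/6J strain and on chow, and their age is not given in the sources used here. The depots compared, with 2 libraries for each, were SWAT (inguinal, under the skin), EWAT (around the epididymis) and NWAT (around the kidney). Mesenteric fat (MWAT) was not analysed here. Whether the pair of libraries from a depot had different mice as donors is not stated, so the p-values speak of the spread among these libraries alone, and that spread may be technical. In bulk libraries, fewer cells that make a transcript and less of it per cell cannot be told apart.

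The libraries summed to between 20026413 and 20638724 estimated counts. All 8 progenitor markers examined had counts in each library, with Pdgfra, a receptor that marks these cells, at 935.6 to 1443 CPM (counts scaled to a common library size with edgeR's TMM factors). The 6 adipocyte markers summed to 1.48 to 8.40 CPM, of which Plin1, a lipid droplet gene, reached 6.38 CPM. The 8 endothelial markers summed to 201.1 to 367.6 CPM, nearly all of it from Tek, an angiopoietin receptor gene, at 177.8 to 354.8 CPM, while Pecam1 reached at most 8.63 CPM. The summed level of 3 red cell genes was 158.3 CPM in NWAT replicate 2, against 4.99 to 14.6 CPM in the other 5 libraries, and its part in the results was not tested.

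Promoters of 3 members are shown because their genes stood out in different depots: Mfap2 was highest in SWAT, Fbln2 in EWAT, and Fbln5 was lowest in SWAT. Each window runs 5′ to 3′ from 250 bases before to 50 bases after a transcription start in RefSeq's annotation of GRCm38.p6, and capitals mark the motifs that were searched for.
Mfap2, plus strand, chr4:141010174-141010473: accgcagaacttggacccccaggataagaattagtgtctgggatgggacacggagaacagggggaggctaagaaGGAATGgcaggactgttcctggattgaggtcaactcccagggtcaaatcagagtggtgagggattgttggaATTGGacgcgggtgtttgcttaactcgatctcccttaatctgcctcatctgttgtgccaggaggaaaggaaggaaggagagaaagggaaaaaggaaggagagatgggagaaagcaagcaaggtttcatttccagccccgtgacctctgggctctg
Fbln2, plus strand, chr6:91212514-91212813: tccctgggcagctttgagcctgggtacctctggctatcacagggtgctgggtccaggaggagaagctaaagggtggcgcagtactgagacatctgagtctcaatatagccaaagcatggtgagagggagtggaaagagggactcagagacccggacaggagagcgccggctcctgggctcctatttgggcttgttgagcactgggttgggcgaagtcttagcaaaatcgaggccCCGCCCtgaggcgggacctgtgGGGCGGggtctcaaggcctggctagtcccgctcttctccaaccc
Fbln5, minus strand, chr12:101819070-101819369: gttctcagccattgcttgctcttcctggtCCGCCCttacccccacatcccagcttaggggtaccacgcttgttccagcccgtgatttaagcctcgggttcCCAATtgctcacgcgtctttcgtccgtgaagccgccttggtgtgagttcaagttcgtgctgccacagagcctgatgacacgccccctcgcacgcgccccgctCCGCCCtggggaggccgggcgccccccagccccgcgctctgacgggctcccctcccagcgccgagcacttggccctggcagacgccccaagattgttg
The motifs were the GC box GGGCGG, the TATA box TATAAA, the CCAAT box CCAAT, the AP-1 element TGANTCA and the TEAD element GGAATG, each searched on both strands. The search covered 10 windows of 6 members (Fbn1, Mfap2, Thsd4, Fbln1, Fbln2 and Fbln5), some of which have more than 1 start, and not Eln, Fbn2, Mfap4 and Mfap5. A GC box stood in 6 of the 10 windows, 1 window for each of these genes, against 35.7% of all 32851 windows and 54.2% of the 17324 windows of genes in the table. The CCAAT box occurred in windows of Mfap2, Thsd4 and Fbln5 (37.4% of all windows hold it) and the TEAD element in a window of Mfap2 (14.7%). The letters of the TATA box (13.6% of all windows) and of the AP-1 element (7.81%) were in 0 of the 10 windows.

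Fbn1 and Mfap5 were the most abundant members when transcripts were compared per length. On the FPKM scale, which divides by gene length, Fbn1 averaged 572 and Mfap5 543.7 over the depots, and both lay above 99.5% of the symbols listed. Fbln2 (252.7 FPKM), Eln (197.0), Fbln5 (160.1), Fbln1 (138.7) and Mfap2 (67.5) followed. Mfap4 (23.0 FPKM), Thsd4 (1.45) and Fbn2 (0.727) were the least abundant. The summed level of the 10 genes was 1579 and 1481 FPKM in SWAT, 2072 and 2179 FPKM in EWAT and 2349 and 2082 FPKM in NWAT. Both SWAT libraries lay below the other 4 on this scale, which has no TMM scaling. On log2 (FPKM + 1) values the log2 fold changes of all genes shifted from those of the TMM-scaled counts. The median shift was -0.216 in SWAT against EWAT and -0.175 in SWAT against NWAT. The part of library scaling in the order of the sums was not tested.

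**Figure D1:**
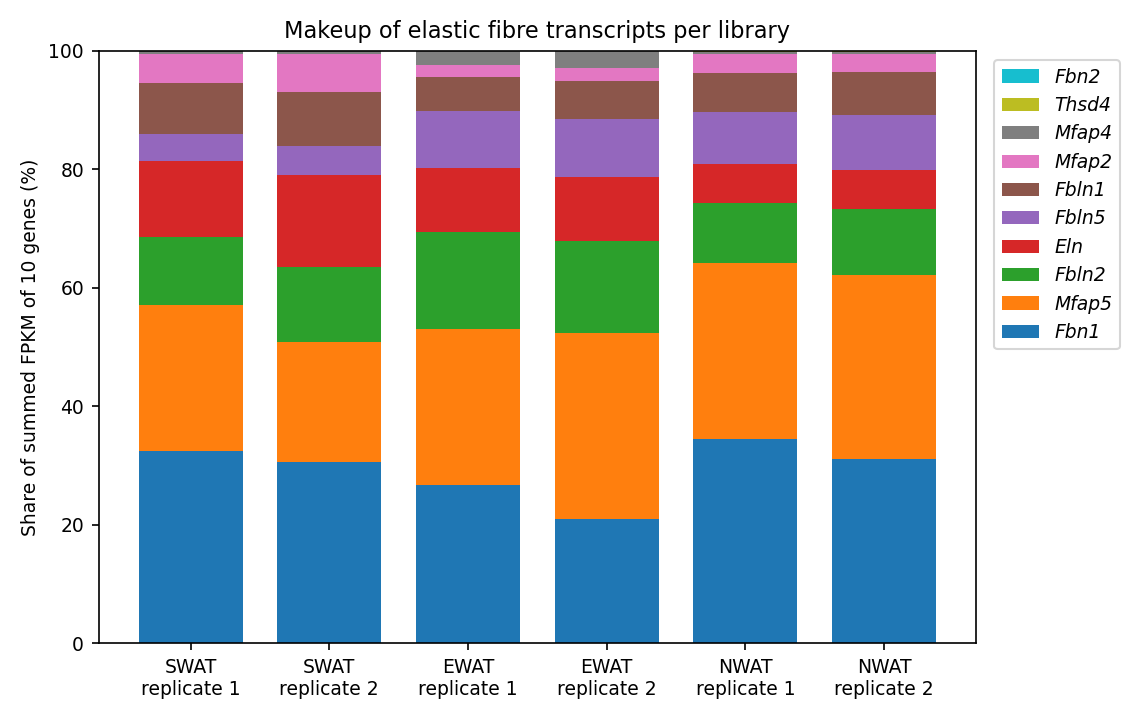
Share of each gene in the summed FPKM of the 10 genes (y axis, percent) in each of the 6 libraries (x axis). Fbn1 and Mfap5 fill the lower part of every bar, Eln is widest in SWAT and narrowest in NWAT, and Thsd4 and Fbn2 are too low to be seen.

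The makeup of the elastic fibre transcripts differed between depots, and shares within a library do not depend on how libraries are scaled. Eln made up 14.2% ± 1.96 (SD, n = 2 here and for the shares that follow) of the summed FPKM in SWAT, 10.7% ± 0.0817 in EWAT and 6.61% ± 0.130 in NWAT. Fbln5 made up 4.74% ± 0.120 in SWAT, 9.73% ± 0.0526 in EWAT and 9.08% ± 0.291 in NWAT. Eln thus held its largest share where Fbln5 held its smallest. Mfap2 took 5.72% ± 1.06 in SWAT, 2.18% ± 0.140 in EWAT and 3.11% ± 0.0996 in NWAT, and Mfap4 took 2.54% ± 0.371 in EWAT and under 0.5% in each of the other libraries. Fbn1 took 31.5% ± 1.38 in SWAT, 23.8% ± 4.01 in EWAT and 32.8% ± 2.28 in NWAT.

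Which members differed among the depots was asked with edgeR's quasi-likelihood test over all 6 libraries, with Benjamini-Hochberg adjustment over all genes and a threshold of 0.05. In the joint test of the 3 depots 8 of the 10 members passed, against 41.7% of all genes tested. The exceptions were Fbn2 (edgeR adjusted p = 0.277) and Fbln1 (edgeR adjusted p = 0.0786). In SWAT against EWAT 6 members passed (36.7% of all genes), of which 1 was higher in SWAT (18.0% of all genes) and 5 were lower (18.7%). SWAT against NWAT gave 5 (18.9% of all genes), with 2 higher in SWAT (9.07%) and 3 lower (9.83%). EWAT against NWAT gave 6 (27.3% of all genes), with 3 higher in EWAT (13.3%) and 3 lower (14.0%). Of the 10 members, 8 passed in at least 1 pair (47.4% of all genes) and 2, Mfap2 and Thsd4, in all 3 pairs (5.41%). The 3 pairs share libraries and are not independent of each other. As the members were chosen with earlier results of these data known, their shares beside those of all genes are a description only.

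The median log2 fold change over the members was -0.53 in SWAT against EWAT, -0.16 in SWAT against NWAT and -0.08 in EWAT against NWAT, where the median over all genes tested was -0.01, -0.02 and 0.01. The members' median absolute log2 fold change was 0.62, 0.45 and 0.53 in these pairs, against 0.32, 0.22 and 0.27 over all genes. Neither these medians nor the shares passing were matched for abundance, on which passing depends. Mfap2, of rank 7 among the members by FPKM, still lay above 95% of the symbols listed. Without SWAT replicate 2 the count in SWAT against NWAT was 3 (10.5% of all genes). On log2 (FPKM + 1) values, which have no TMM scaling, the log2 fold changes of all genes shifted by a median of -0.216 in SWAT against EWAT, -0.175 in SWAT against NWAT and 0.0403 in EWAT against NWAT. The share of calls that were higher was then 18.8%, 18.6% and 59.0% in the 3 pairs, against 49.1%, 48.0% and 48.8% from the counts.

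**Figure D2:**
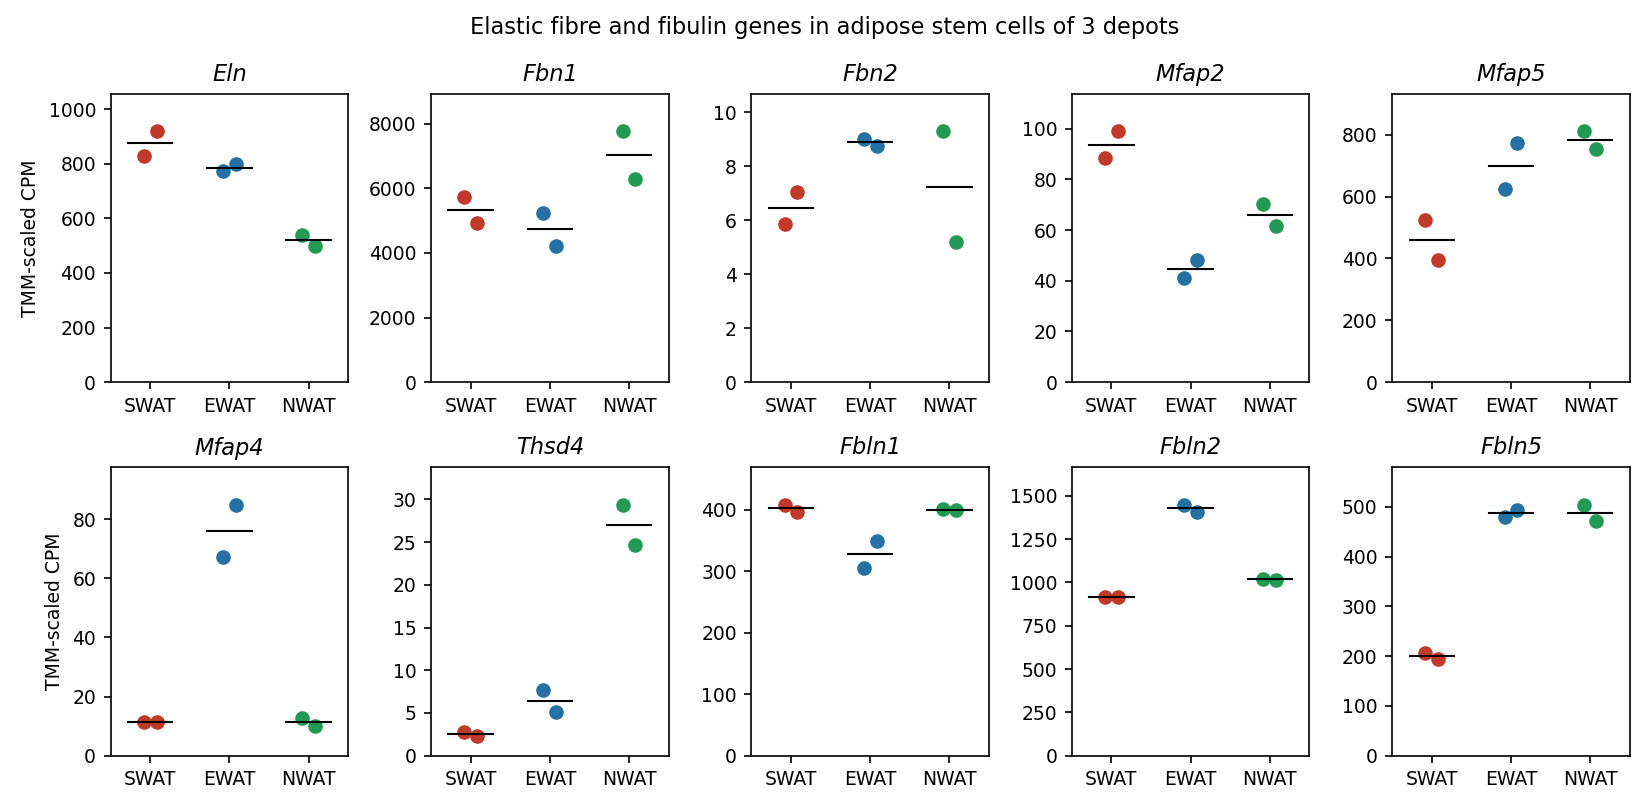
TMM-scaled CPM (y axis, from 0) of each of the 10 genes in SWAT, EWAT and NWAT (x axis); points are libraries and lines are means of 2. Mfap4 stands out in EWAT, Thsd4 in NWAT, and Fbln5 is low in both SWAT libraries.

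The elastin gene Eln (chromosome 5, 134702595 to 134747368, GRCm38.p6) was lower in NWAT than in the other depots. It stood at 829.5 and 919.2 CPM in SWAT, 772.2 and 798.3 CPM in EWAT and 539.2 and 499.8 CPM in NWAT. Both NWAT libraries lay below the other 4, and the SWAT and EWAT libraries did not overlap but were close. The log2 fold change was 0.75 ± 0.12 (SE) in SWAT against NWAT (edgeR adjusted p = 7.83e-04) and 0.60 ± 0.12 in EWAT against NWAT (edgeR adjusted p = 0.00271). In SWAT against EWAT it was 0.16 ± 0.12 (95% interval -0.10 to 0.41; edgeR adjusted p = 0.318), and -0.08 on log2 (FPKM + 1) values.

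The fibrillin gene Fbn1 alone held 0.452% to 0.807% of all counts of a library. It stood at 5737 and 4918 CPM in SWAT, 5242 and 4216 CPM in EWAT and 7767 and 6295 CPM in NWAT. Both NWAT libraries were above the other 4, while SWAT and EWAT overlapped. Fbn1 was lower in EWAT than in NWAT by a log2 fold change of -0.57 ± 0.16 (edgeR adjusted p = 0.0181), a call lost without EWAT replicate 2 (-0.43) or NWAT replicate 1 (-0.41). Against NWAT, the SWAT value was -0.40 ± 0.16 (95% interval -0.74 to -0.06), which did not pass after adjustment (edgeR adjusted p = 0.0996). It passed in DESeq2 (-0.39, DESeq2 adjusted p = 0.0416) and on log2 (FPKM + 1) values (-0.59, limma adjusted p = 0.0292). With genes left unfiltered the latter did not pass (limma adjusted p = 0.0571). All genes shifted by a median of -0.175 in this pair on that scale. The EWAT against NWAT difference did not pass on unfiltered log2 (FPKM + 1) values either (-0.53, limma adjusted p = 0.0763).

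Fbn2 stood at 5.87 and 7.07 CPM in SWAT, 9.01 and 8.76 CPM in EWAT and 9.30 and 5.19 CPM in NWAT. The NWAT libraries spanned the whole range of the other 4 libraries. It passed in none of the pairs, with edgeR adjusted p values of 0.161 to 0.704 and an interval of -0.99 to 0.07 for the log2 fold change of SWAT against EWAT. Its counts were 107 to 195 per library.

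Of the MAGP genes, Mfap2 was highest and Mfap5 lowest in SWAT. Mfap2 (chromosome 4, 141010424 to 141015976) stood at 88.4 and 99.0 CPM in SWAT, 41.1 and 48.0 CPM in EWAT and 70.4 and 61.5 CPM in NWAT. The libraries of the 3 depots did not overlap. Mfap2 was 2.10-fold higher in SWAT than in EWAT (log2 fold change 1.07 ± 0.12, edgeR adjusted p = 2.98e-05) and lower in EWAT than in NWAT (-0.57 ± 0.12, edgeR adjusted p = 0.00431; call lost without NWAT replicate 1, -0.46). It was higher in SWAT than in NWAT by 0.51 ± 0.12 (edgeR adjusted p = 0.00985), a call lost without SWAT replicate 2 (0.42) or NWAT replicate 2 (0.41) and on log2 (FPKM + 1) values (0.33).

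Mfap5 (chromosome 6, 122513584 to 122529290) stood at 523 and 394.3 CPM in SWAT, 625.7 and 772 CPM in EWAT and 811.5 and 753.1 CPM in NWAT. Both SWAT libraries were the lowest, and EWAT and NWAT overlapped. Mfap5 was lower in SWAT than in EWAT by a log2 fold change of -0.61 ± 0.15 (edgeR adjusted p = 0.00991; call lost without SWAT replicate 2, -0.42, or EWAT replicate 2, -0.44). Against NWAT it was lower by -0.77 ± 0.15 (edgeR adjusted p = 0.00447; call lost without SWAT replicate 2, -0.58). In EWAT against NWAT the log2 fold change was -0.16 (95% interval -0.50 to 0.17), which did not pass.

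**Figure D3:**
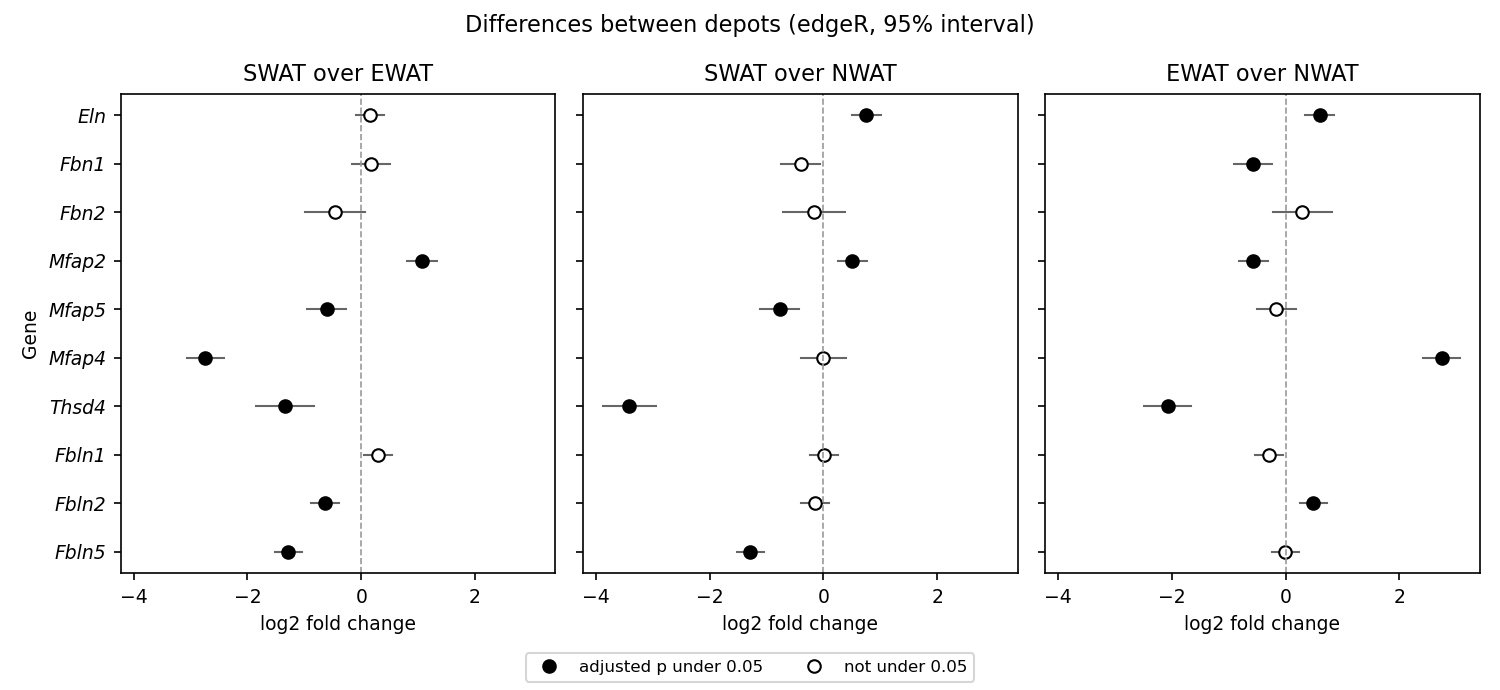
Log2 fold change (x axis) of the 10 genes (y axis) in the 3 pairs of depots, with 95% intervals; filled points passed the adjusted threshold of 0.05. Mfap4 lies at -2.74 in SWAT over EWAT and 2.74 in EWAT over NWAT, and Thsd4 lies left of 0 in all 3 pairs.

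Mfap4, whose product binds elastin and fibrillin and helps tropoelastin assemble, was highest in EWAT. It lies on chromosome 11 from 61485431 to 61488708 and stood at 11.4 and 11.3 CPM in SWAT, 67.3 and 84.9 CPM in EWAT and 12.7 and 10.04 CPM in NWAT. Both EWAT libraries were far above the other 4, and SWAT and NWAT overlapped. It was 6.69-fold lower in SWAT than in EWAT (log2 fold change -2.74 ± 0.15, edgeR adjusted p = 8.99e-08) and 6.69-fold higher in EWAT than in NWAT (2.74 ± 0.15, edgeR adjusted p = 2.13e-07). Between SWAT and NWAT the 95% interval of the log2 fold change was -0.40 to 0.40.

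The summed level of 12 smooth muscle and pericyte markers was highest in EWAT, as was Mfap4, and their part in its level was not tested. Of the 12 markers, 11 were tested. In SWAT against EWAT 8 were lower (18.7% of all genes) and 3 higher (18.0%). EWAT against NWAT gave 6 higher (13.3%) and 1 lower (14.0%). SWAT against NWAT, where Mfap4 did not pass, gave 3 higher (9.07%) and 3 lower (9.83%). The sum over all 12 was 127.9 and 137.8 CPM in SWAT, 273 and 287.7 CPM in EWAT and 152.4 and 146.2 CPM in NWAT. In EWAT, Des, which codes for the muscle filament desmin, stood at 90.9 and 95.8 CPM and the smooth muscle myosin gene Myh11 at 27.1 and 23.8 CPM, whereas Acta2, the smooth muscle actin gene, stood at 4.92 and 9.28 CPM. Des averaged 5.13 CPM in SWAT and 16.2 CPM in NWAT. Notch3, Kcnj8 and Cspg4 of the same list were instead higher in SWAT (means 42.5, 2.65 and 3.73 CPM) than in EWAT (13.2, 0.341 and 2.11 CPM). Mustn1 averaged 64.4 CPM in EWAT and 68.2 CPM in NWAT. Cnn1, a smooth muscle calponin gene, had 0 counts in EWAT replicate 1 and in NWAT replicate 2. The summed macrophage markers were highest in EWAT too. They stood at 13.5 and 23.5 CPM in SWAT, 40.0 and 38.4 CPM in EWAT and 21.9 and 19.8 CPM in NWAT.

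Thsd4, which codes for an ADAMTS-like protein that promotes the assembly of fibrillin-1 microfibrils, had the largest fold change of the 10 genes. It lies on chromosome 9 from 59966931 to 60522113 and stood at 2.81 and 2.27 CPM in SWAT, 7.72 and 5.12 CPM in EWAT and 29.4 and 24.7 CPM in NWAT. The libraries of the 3 depots did not overlap. Thsd4 was 10.7-fold lower in SWAT than in NWAT (log2 fold change -3.42 ± 0.21, edgeR adjusted p = 1.22e-06), 4.22-fold lower in EWAT than in NWAT (-2.08 ± 0.18, edgeR adjusted p = 1.13e-05) and 2.53-fold lower in SWAT than in EWAT (-1.34 ± 0.23, edgeR adjusted p = 0.00103). The SWAT level rested on 51 and 43 estimated counts, and on log2 (FPKM + 1) values the 3 log2 fold changes were -1.73, -1.21 and -0.52.

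Summed markers of Dpp4-type interstitial progenitors, a class of fat stem cell, were highest in NWAT, as were the means of Fbn1, Mfap5 and Thsd4. All 12 markers were lower in EWAT than in NWAT (14.0% of all genes), and in SWAT against NWAT 8 were lower (9.83%) and 1 higher (9.07%). In SWAT against EWAT 9 were higher (18.0%) and 1 lower (18.7%). Their summed level was 7496 and 6266 CPM in SWAT, 4256 and 4326 CPM in EWAT and 10820 and 9504 CPM in NWAT. The means of Fbn1 had the same order as this sum (NWAT, SWAT, EWAT), whereas Mfap5 and Thsd4 were lowest in SWAT. The part of these markers in the levels of Fbn1, Mfap5 and Thsd4 was not tested.

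Fibulins bind elastin, fibrillin and the cell surface, and 2 of the 3 fibulin genes among the members, Fbln2 and Fbln5, passed the joint test of the depots. Fbln5, whose product links tropoelastin to microfibrils and to integrins and is needed for elastic fibres to form in mice, had the largest difference of these 3. It lies on chromosome 12 from 101746565 to 101819119 and stood at 206 and 194.8 CPM in SWAT, 479.7 and 493.6 CPM in EWAT and 504.2 and 471.1 CPM in NWAT. Both SWAT libraries were far below the other 4, and EWAT and NWAT overlapped. Fbln5 was 2.43-fold lower in SWAT than in each of the other depots (log2 fold change -1.28 ± 0.11 in both, edgeR adjusted p = 4.02e-06 against EWAT and 9.33e-06 against NWAT). In EWAT against NWAT it was -0.003 (95% interval -0.24 to 0.23).

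Summed mesothelial markers, genes of the lining of the body cavity, were also lowest in SWAT. Their summed level over 8 genes was 3.51 and 4.27 CPM in SWAT, 9.25 and 10.2 CPM in EWAT and 13.1 and 11.8 CPM in NWAT. Of 6 tested, 5 were lower (18.7% of all genes) and 1 higher (18.0%) in SWAT against EWAT. The higher one was Krt19, at 3.18 and 3.11 CPM in SWAT, which is most of the SWAT sum. It stood at 0.607 and 0.809 CPM in EWAT and 6.39 and 6.21 CPM in NWAT. In SWAT against NWAT 5 were lower (9.83%) and 0 higher (9.07%). Upk1b and Gpm6a had 0 counts in both SWAT libraries, and Msln, Krt8 and Krt18 had 0 in SWAT replicate 1. The part of these markers in the levels of Fbln5 and Mfap5, which were lowest in SWAT too, was not tested.

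Fbln2, whose product binds fibrillin, elastin and basement membrane proteins, was highest in EWAT. It stood at 913.4 and 917 CPM in SWAT, 1449 and 1407 CPM in EWAT and 1022 and 1014 CPM in NWAT. The libraries of the 3 depots did not overlap. Fbln2 was lower in SWAT than in EWAT (log2 fold change -0.64 ± 0.11, edgeR adjusted p = 9.51e-04) and higher in EWAT than in NWAT (0.49 ± 0.11, edgeR adjusted p = 0.00717; call lost without NWAT replicate 1, 0.50, or NWAT replicate 2, 0.48). The SWAT against NWAT value of -0.15 ± 0.11 did not pass (edgeR adjusted p = 0.388). On log2 (FPKM + 1) values it was -0.34 and passed (limma adjusted p = 0.0446), but not when genes were left unfiltered (limma adjusted p = 0.0539). All genes shifted by a median of -0.175 in this pair on that scale.

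Fbln1, whose product binds fibronectin and elastin, was among the most even members. It stood at 407.9 and 396.7 CPM in SWAT, 305.7 and 349.3 CPM in EWAT and 400.9 and 398.9 CPM in NWAT. Both EWAT libraries were below the other 4, but the log2 fold change of 0.30 ± 0.11 in SWAT against EWAT (edgeR adjusted p = 0.0582) and of -0.29 ± 0.11 in EWAT against NWAT (edgeR adjusted p = 0.0788) did not pass. Both passed without EWAT replicate 2 (0.41 and -0.39) and in DESeq2 (0.31 and -0.29). Between SWAT and NWAT the 95% interval was -0.24 to 0.26.

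**Figure D4:**
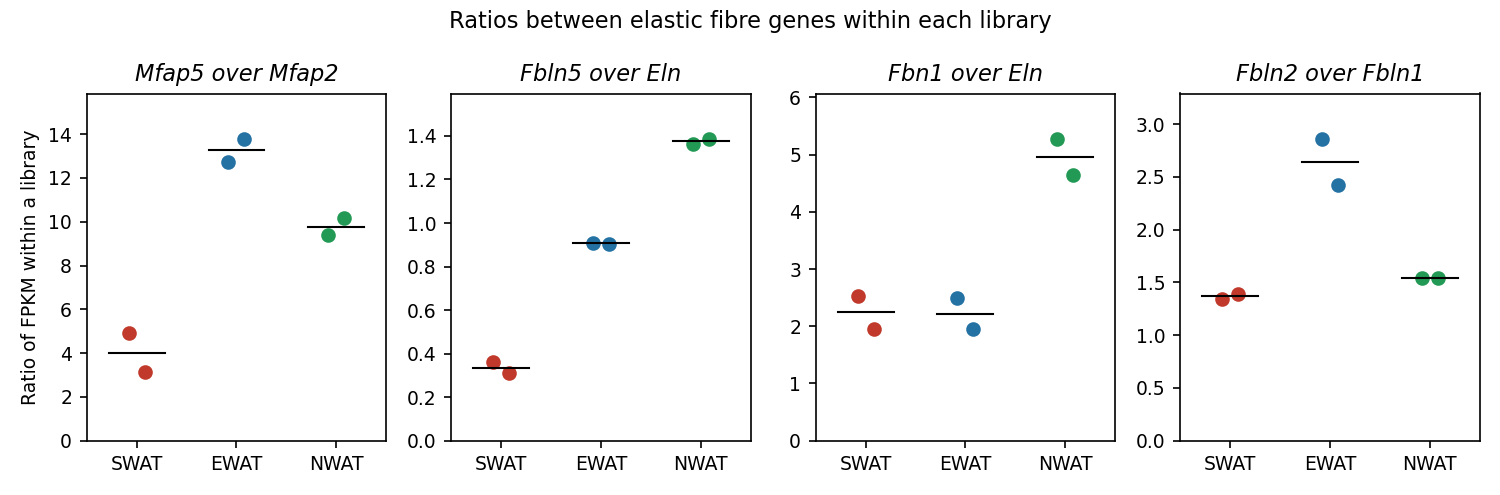
Ratio of the FPKM of 2 genes within a library (y axis, from 0) in SWAT, EWAT and NWAT (x axis); points are libraries and lines are means of 2. Mfap5 over Mfap2 and Fbln5 over Eln are lowest in SWAT, Fbn1 over Eln is highest in NWAT, and Fbln2 over Fbln1 is highest in EWAT.

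Ratios of members within a library do not depend on library scaling. The pairs of genes were picked after their levels were seen, so the ratios are a description with no test, and 2 libraries against 2 allow no two-sided exact permutation p below 0.333. Mfap5 was 4.93 and 3.13 times as abundant as Mfap2 in SWAT, 12.7 and 13.8 times in EWAT and 9.39 and 10.2 times in NWAT. Both SWAT libraries had less MAGP-2 transcript for each MAGP-1 transcript than the other 4. Fbln5 over Eln was 0.363 and 0.309 in SWAT, 0.908 and 0.905 in EWAT and 1.36 and 1.39 in NWAT, with no overlap between depots. Fbn1 over Eln was 2.54 and 1.96 in SWAT, 2.50 and 1.94 in EWAT and 5.28 and 4.65 in NWAT, with overlap between SWAT and EWAT. Fbln2 over Fbln1 was 1.34 and 1.39 in SWAT, 2.86 and 2.42 in EWAT and 1.55 and 1.54 in NWAT.

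The genes most like each member over the 6 libraries were sought among 10278 genes by the distance between log2 CPM values centred on each gene's mean. For Mfap2 the nearest was Fap, which codes for fibroblast activation protein (distance 0.181). Fap stood at 163.5 CPM ± 11.5 in SWAT, 81.9 CPM ± 2.88 in EWAT and 119 CPM ± 1.44 in NWAT (SD, n = 2 each). For Mfap4 it was Chrm3, a muscarinic acetylcholine receptor gene (0.529), at 3.33 CPM in SWAT, 23.8 CPM in EWAT and 4.02 CPM in NWAT. The nearest to Thsd4 was Nptx2, a neuronal pentraxin gene (0.869), and the nearest to Fbln2 was Bcl2l1, an inhibitor of cell death (0.0535). The distance is not scaled to the range of a gene, so it is larger for members with large fold changes and is not compared between them. For the others the nearest were Btbd2 (Fbln1, 0.0905), Arhgap20 (Fbn1, 0.131), Hoxb6 (Eln, 0.150), Wdr66 (Fbln5, 0.206), D3Ertd751e (Mfap5, 0.215) and Ddb2 (Fbn2, 0.252). The third nearest to Fbln1 was Loxl3, a lysyl oxidase-like gene whose family cross-links elastin and collagen (0.116).

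**Figure D5:**
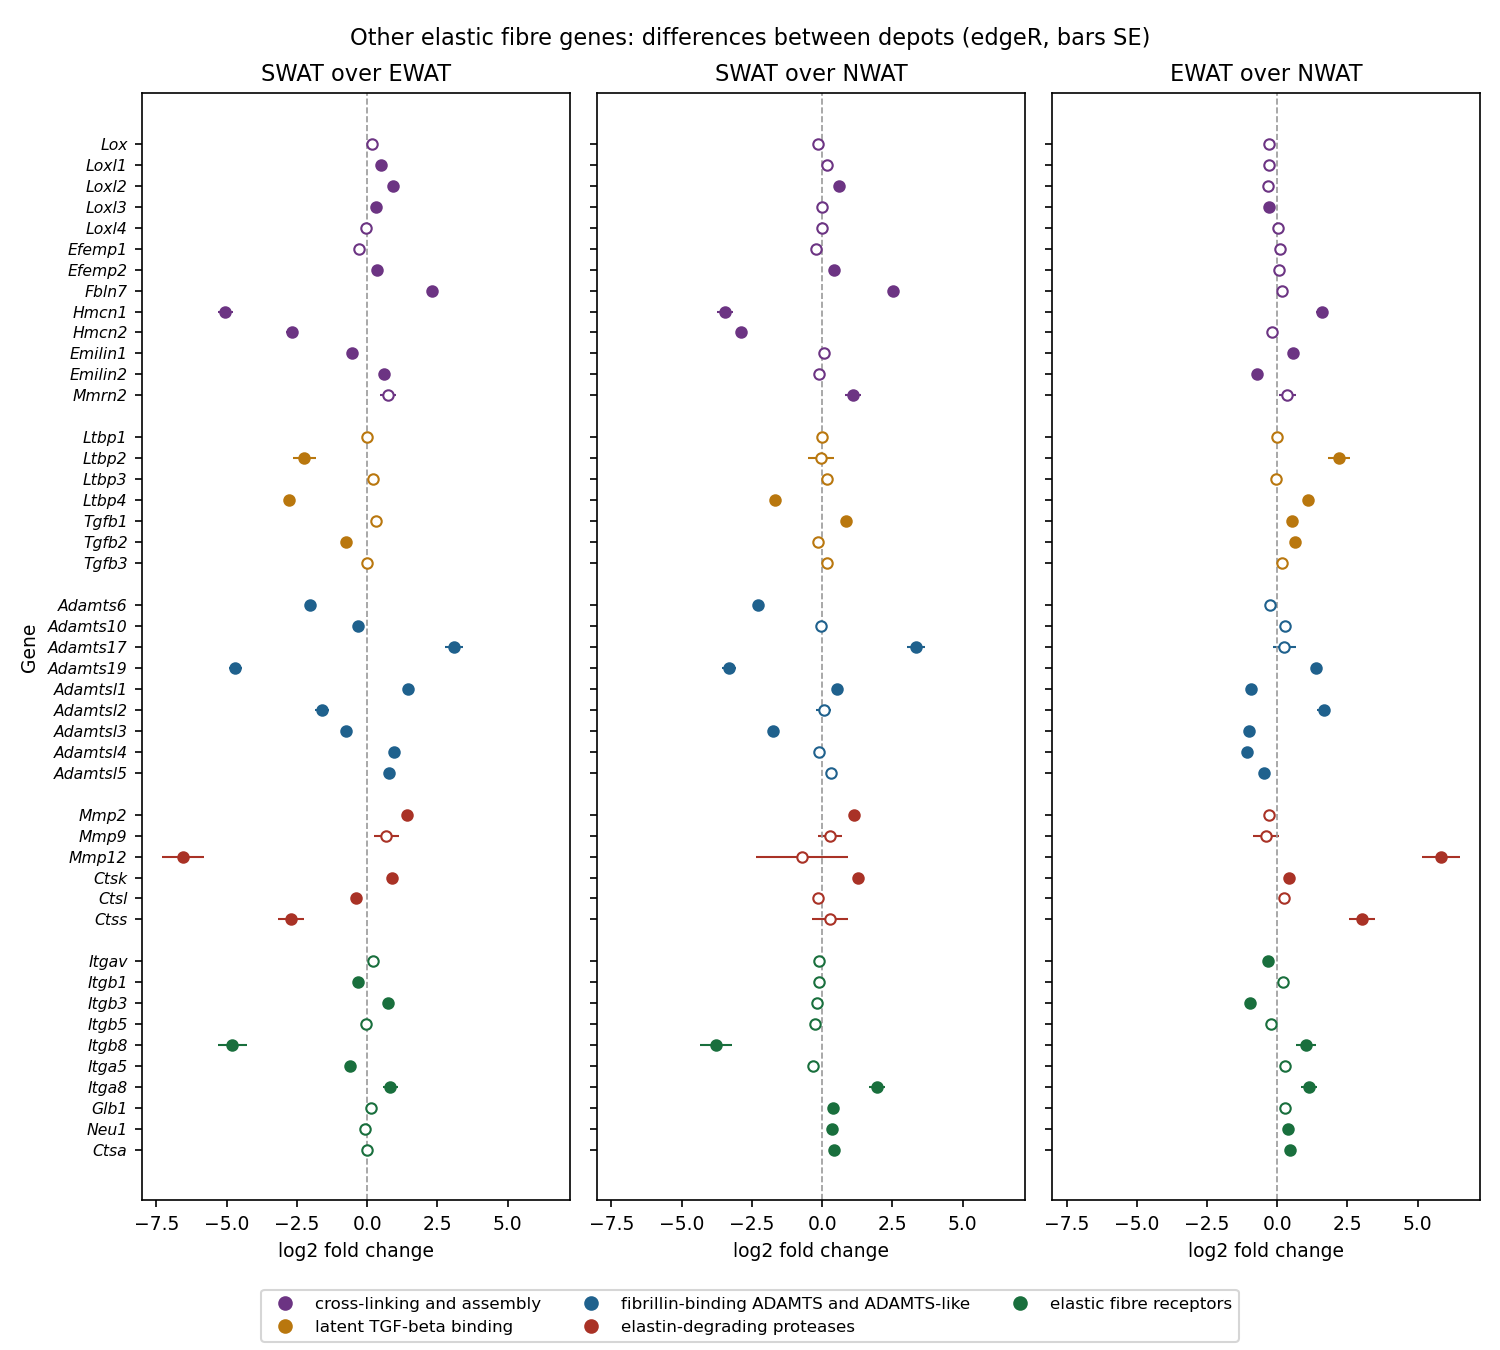
Log2 fold change ± SE (x axis) of 45 other genes of the elastic fibre pathway (y axis, coloured by list) in the 3 pairs of depots; filled points passed the adjusted threshold of 0.05. Hmcn1, Adamts19, Itgb8 and Mmp12 lie farthest left in SWAT over EWAT, while Lox and Loxl4 lie near 0; Mmp12 had 0 and 1 counts in SWAT, so its fitted value is no measure of size.

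The rest of the pathway was read from 5 lists holding 49 genes, of which 45 were tested. In SWAT against EWAT 31 of them passed, 14 higher in SWAT and 17 lower (36.7% of all genes passed). SWAT against NWAT gave 20 calls, 13 higher and 7 lower (18.9%), and EWAT against NWAT gave 23, 15 higher and 8 lower (27.3%), or 15 without NWAT replicate 2. The median log2 fold change of the 45 genes was 0.004, 0.006 and 0.18 in these pairs, against -0.01, -0.02 and 0.01 over all genes.

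Among 13 tested cross-linking and assembly genes, 6 were higher and 3 lower in SWAT against EWAT (36.7% of all genes passed). The count fell without SWAT replicate 1. Against NWAT, 4 were higher and 2 lower in SWAT (18.9% of all genes passed). In EWAT against NWAT 2 were higher and 2 lower (27.3%), a count that rose without EWAT replicate 1. The hemicentin genes, which code for very large relatives of the fibulins, were low in SWAT. Hmcn2 stood at 72.9 CPM ± 8.36 in SWAT, 470.7 CPM ± 124 in EWAT and 535.7 CPM ± 48.5 in NWAT (SD, n = 2 each). Hmcn1 stood at 0.936 CPM ± 0.392 in SWAT, 31.3 CPM ± 7.17 in EWAT and 10.5 CPM ± 1.27 in NWAT, with 12 and 23 counts behind the SWAT level. Fbln7, the gene of the adhesion protein fibulin-7, went the other way, at 86.4 CPM ± 15.5 in SWAT, 17.3 CPM ± 1.995 in EWAT and 15.3 CPM ± 2.94 in NWAT. The log2 fold change of Fbln7 was 2.32 ± 0.16 against EWAT (edgeR adjusted p = 1.67e-06), and that of Hmcn2 was -2.69 ± 0.18 (edgeR adjusted p = 1.21e-06).

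Loxl2, a lysyl oxidase-like enzyme gene, was higher in SWAT by 0.93 ± 0.12 against EWAT (edgeR adjusted p = 9.14e-05) and by 0.59 ± 0.12 against NWAT (edgeR adjusted p = 0.00405). The other members of the family differed less or did not pass. Lox, the founding enzyme of the family, passed in none of the pairs and stood at 609 CPM ± 71.6 in SWAT, 543.9 CPM ± 11.3 in EWAT and 672 CPM ± 5.61 in NWAT (SD, n = 2 each).

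Among 7 genes of latent TGF-beta binding, 3 were lower in SWAT against EWAT and 0 higher (36.7% of all genes passed). Against NWAT, 1 was higher in SWAT and 1 lower (18.9% of all genes passed). In EWAT against NWAT 4 were higher (27.3%), a count that fell without EWAT replicate 2 or without NWAT replicate 2. Ltbp4, whose product binds latent TGF-beta and works with fibulin-5 in elastin assembly, stood at 291 CPM ± 30.3 in SWAT, 1995 CPM ± 127 in EWAT and 935 CPM ± 155 in NWAT (SD, n = 2 each). It was lower in SWAT by -2.78 ± 0.15 against EWAT (edgeR adjusted p = 8.00e-08) and by -1.68 ± 0.15 against NWAT (edgeR adjusted p = 9.33e-06), and so was low in the depot where Fbln5 was low. Ltbp2, a microfibril protein gene with few reads, stood at 1.20 CPM in SWAT, 5.70 CPM in EWAT and 1.25 CPM in NWAT. Of the growth factor genes, Tgfb2 was lower in SWAT than in EWAT (-0.76 ± 0.15, edgeR adjusted p = 0.00214) and Tgfb1 was higher in SWAT than in NWAT (0.83 ± 0.12, edgeR adjusted p = 5.73e-04).

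All 9 genes of fibrillin-binding ADAMTS proteases and ADAMTS-like proteins, the family of Thsd4, passed in SWAT against EWAT, 4 higher and 5 lower. Of all genes, 36.7% passed in this pair. Against NWAT, 2 were higher and 3 lower in SWAT (18.9% of all genes passed). In EWAT against NWAT 2 were higher and 4 lower (27.3%). Adamtsl3 had the same order of depots as Thsd4, at 41.4 CPM ± 0.684 in SWAT, 68.9 CPM ± 9.40 in EWAT and 138 CPM ± 1.13 in NWAT (SD, n = 2 each). Adamtsl1 stood at 320 CPM ± 36.6 in SWAT, 118 CPM ± 15.6 in EWAT and 224 CPM ± 0.985 in NWAT. Its difference between SWAT and NWAT (log2 fold change 0.51, edgeR adjusted p = 0.0136) was lost without SWAT replicate 2 (0.39), NWAT replicate 1 (0.52) or NWAT replicate 2 (0.51) and on log2 (FPKM + 1) values (0.31). Adamts19 stood at 0.564 CPM in SWAT, 14.8 CPM in EWAT and 5.67 CPM in NWAT, with 10 and 11 counts behind the SWAT level. Adamts17 was instead highest in SWAT, at 4.91 CPM in SWAT, 0.568 CPM in EWAT and 0.474 CPM in NWAT. Its low levels rested on 11 and 14 counts in EWAT and 12 and 8 in NWAT.

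Of 6 tested genes of elastin-degrading proteases, 2 were higher and 3 lower in SWAT against EWAT (36.7% of all genes passed). Against NWAT, 2 were higher in SWAT (18.9% of all genes passed), and in EWAT against NWAT 3 were higher (27.3%). Mmp2, the gene of gelatinase A, was the most abundant, at 3006 CPM ± 141 in SWAT, 1129 CPM ± 38.6 in EWAT and 1378 CPM ± 1.10 in NWAT (SD, n = 2 each). Ctsk, the gene of the elastin- and collagen-cleaving cathepsin K, stood at 340 CPM ± 29.4 in SWAT, 185 CPM ± 21.3 in EWAT and 139 CPM ± 9.10 in NWAT. Its higher level in EWAT than in NWAT (log2 fold change 0.41, edgeR adjusted p = 0.0260) was lost without EWAT replicate 2 (0.29), NWAT replicate 1 (0.35) or NWAT replicate 2 (0.48). Mmp12, macrophage elastase, had 0 and 1 counts in SWAT, 44 and 92 in EWAT and 1 and 1 in NWAT. Ctss, a cathepsin of antigen-presenting cells, had 4 and 7 counts in SWAT, 40 and 47 in EWAT and 7 and 3 in NWAT. The summed macrophage markers, given above, were highest in EWAT too, and their part in these counts was not tested.

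Among 10 elastic fibre receptor genes, 2 were higher and 3 lower in SWAT against EWAT (36.7% of all genes passed). SWAT against NWAT gave 4 higher and 1 lower (18.9% of all genes), and EWAT against NWAT 4 higher and 2 lower (27.3%). These counts moved with single libraries: without either SWAT library, or without NWAT replicate 2, only 2 passed in SWAT against NWAT, and 2 in EWAT against NWAT without NWAT replicate 2. In SWAT against EWAT 3 passed without SWAT replicate 2, and without NWAT replicate 1 there were 3 in SWAT against NWAT and 3 in EWAT against NWAT. Itgb3, a subunit of an integrin that binds fibrillin and fibulin-5, stood at 60.9 CPM ± 0.0463 in SWAT, 36.1 CPM ± 1.86 in EWAT and 70.0 CPM ± 3.51 in NWAT (SD, n = 2 each). Itgb8, a subunit of the integrin that releases latent TGF-beta, had 1 and 5 counts in SWAT, 125 and 77 in EWAT and 57 and 38 in NWAT. Its call in EWAT against NWAT (log2 fold change 1.02, edgeR adjusted p = 0.0448) was lost in DESeq2 (DESeq2 adjusted p = 0.0741). That call was also lost without EWAT replicate 1 (0.60), NWAT replicate 1 (1.33) or NWAT replicate 2 (0.77). On log2 (FPKM + 0.1) values (0.96) and on unfiltered log2 (FPKM + 1) values (0.55) it was lost too. Itga8, an integrin subunit of contractile and mesenchymal cells, stood at 7.43 CPM in SWAT, 4.19 CPM in EWAT and 1.90 CPM in NWAT. The call of Itga8 in SWAT against EWAT was lost without SWAT replicate 2 (0.63) or EWAT replicate 2 (0.55). Its call in EWAT against NWAT was lost without EWAT replicate 1 (0.77) or NWAT replicate 2 (0.87). Both calls were also lost on unfiltered log2 (FPKM + 1) values (0.29 and 0.39). Ctsa, part of the elastin receptor complex, was lower in NWAT than in EWAT (EWAT against NWAT 0.45 ± 0.10, edgeR adjusted p = 0.00545; call lost without NWAT replicate 2, 0.42).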

How the data were processed

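Estimated counts for each gene symbol, not normalized, and FPKM values, which scale reads by gene length and library size, were both deposited by the authors, as named per the file headers. Of the non-zero counts, 35.4% to 36.9% per library are not whole. Cell Ranger, Seurat and the build GRCm38.p6 appear with no role in the submitters' processing notes. No source used here gives the gate's markers, library kit, strand setting, aligner or counter, so reads of genes that overlap Eln, Fbn2 or Thsd4 cannot be told apart. Both tables hold 2 columns that match no label, which were left out, so MWAT was not analysed.

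Counts were rounded, scaled by TMM and tested in edgeR 4.0.16 (R 4.3.3; filterByExpr, minimum count 10, minimum total 15; 1 coefficient per depot; 3 residual degrees of freedom; common biological coefficient of variation 0.0979). Standard errors are the absolute log2 fold change over the square root of F. DESeq2 1.42.0 and limma 3.58.1 were alternatives. The fits were also run on counts simulated with the same spread for every gene, which cannot show how they behave on these libraries. Folds compare depots named by the samples' titles. Members, lists and tests were chosen with earlier results of these data known. Named are the 10 members, the 3 genes most like each by distance (minimum mean log2 CPM 2), of which the nearest is given, and up to 4 genes per pathway list called in most pairs. Other genes were named after their values were seen. Each gene's spread was pooled over the depots and drawn towards that of all genes. For members, tests and intervals thus had 10.41 (Fbn2) to 11.5 (Eln and others) degrees of freedom. Intervals and counts speak only of these 2 libraries per depot. Planned comparisons with MWAT were not made.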

Additional observations from a re-analysis of the deposited data

How the results depend on the processing

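Of 17 differences of members between 2 depots that passed, 11 kept their call and direction under every alternative run (15 for each gene, 13 for Fbn2), and 6 lost the call in at least 1 (Fbn1, Mfap2, Mfap5 and Fbln2). Of the 17, 0 reversed. The calls of Eln, Mfap4, Thsd4 and Fbln5 were kept throughout. On log2 (FPKM + 1) values differences of low genes such as Thsd4 and Hmcn1 (-1.50 in SWAT against EWAT, against -5.05 from counts) shrink because the pseudocount is large beside them.

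Reversals fell on differences that did not pass. On FPKM values with pseudocounts of 1 and 0.1, SWAT against EWAT gave -0.077 and -0.078 for Eln and -0.0604 and -0.0605 for Fbn1, SWAT against NWAT gave -0.169 and -0.170 for Fbln1 and -0.159 and -0.177 for Mfap4, and EWAT against NWAT gave 0.0415 and 0.0417 for Fbln5. With no filter the FPKM values were the same to 3 digits. Mfap4 in SWAT against NWAT also turned to -0.00216 with a stricter count filter, -0.00169 under the replicate block, and, leaving out 1 library at a time, ranged from -0.156 to 0.180. The same ranges were -0.52 to 0.32 for Fbn2 in SWAT against NWAT, -0.065 to 0.78 for Fbn2 in EWAT against NWAT (the highest, without NWAT replicate 1, passed), -0.0099 to 0.0315 for Fbln1 in SWAT against NWAT, and -0.0496 to 0.048 for Fbln5 in EWAT against NWAT. The cause was not tested.

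Leaving out 1 library, the members passing in SWAT against NWAT numbered 3 to 5 and the other pathway genes in EWAT against NWAT 15 to 25. All genes passing numbered 3085 to 5672 in SWAT against EWAT (5020 with all libraries), 1467 to 3323 in SWAT against NWAT (2588) and 2129 to 4884 in EWAT against NWAT (3743). A depot left with 1 library is assumed to vary like the others.

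Differences between replicates 1 and 2 correlated over genes by 0.000549, 0.0375 and 0.110 between depots. With 1 difference per depot, these values cannot tell whether samples of the same number share mice, which the labels do not state. With the replicate number as a block, 8 members passed the joint test, and 6, 6 and 6 the 3 pairs, where Fbn1 also passed in SWAT against NWAT (edgeR adjusted p = 0.0163). No other call of a member changed under the block. Of all genes, 5743 passed the joint test under the block. These results rest on the spread of 2 libraries per depot, and those of Thsd4, Fbn2 and the genes given by their counts also rest on few reads. The effect of sequencing depth was not tested.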
